A study of Mus musculus with 2 samples.

Results

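The 32 genes described here work in mitosis, the division of a cell's duplicated chromosomes, and were taken by name from a list that covers cyclins and kinases, partners of the anaphase promoting complex, the chromosomal passenger complex, kinetochore and checkpoint proteins, kinesin motors, spindle proteins and chromosome structure. Of the 22802 genes with at least 1 UMI (unique molecular identifier, a tag that marks 1 captured RNA molecule) in either library, they are 32, and all 32 were found in both. They were measured in 2 mouse single-cell libraries made with the BD Rhapsody whole transcriptome kit from polyadenylated RNA, 1 library per sample. The embryoid library came from aggregates of Lifeact-RFPRuby ES cells and Gata6-H2B:Venus XTE cells, the second line having been reprogrammed from ES cells and kept on fibronectin with CHIR99021, BMP4, Fgf4, heparin and Activin. The ES cells had been kept in serum with PD0325901, CHIR99021 and Lif. Each aggregate culture was seeded with 10000 ES cells and 50000 to 80000 XTE cells, spent 48 h in aggregation wells and then 48 h in repellent plates. The blastocyst library came from dissociated whole embryos of strain B6C3F1 at embryonic day 4.5. Both libraries started from 6000 cells. The labels do not say how many embryos or aggregates were pooled, and each kind is 1 library here, so no p-value is given and every interval covers counting error only.

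A dividing cell passes through DNA replication, a gap, and then mitosis, in which cyclin A and cyclin B drive the kinase Cdk1, motors and crosslinkers build the spindle, the checkpoint holds the cell until each kinetochore is attached, and the anaphase promoting complex then marks cyclins and securin for destruction. Transcripts of these genes build up before mitosis and fall after it, so that in one population their level depends on the share of cells close to division. In the late blastocyst the trophectoderm (TE) forms the outer wall, the epiblast (EPI) gives rise to the embryo, and the primitive endoderm (PrE) lines the cavity. In rodents, TE cells away from the epiblast leave the mitotic cycle and become polyploid giant cells, whereas TE next to the epiblast goes on dividing.

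The embryoid library held 28923930 UMIs over 5546 barcodes, of which 5328 were kept as cells with a median of 4768.5 UMIs, and the blastocyst library 11047555 UMIs over 1288 barcodes, of which 1080 were kept with a median of 9273 UMIs. The mitosis genes took 0.447% of the kept UMIs in the embryoid library and 0.420% in the blastocyst library. Cells were clustered without the mitosis genes and the other cell cycle lists, and clusters were named from lineage markers. The embryoid library gave 4003 PrE-like, 440 fibroblast-like (FIB-like), 109 EPI-like and 776 unnamed cells, and the blastocyst library gave 376 TE-like, 447 PrE-like and 257 EPI-like cells. The summed level of 16 PrE markers was 17259 counts per 1000000 UMIs (CPM) in embryoid PrE-like cells and 17009 CPM in blastocyst PrE-like cells, and that of 15 EPI markers was 4773 CPM in embryoid EPI-like cells and 8466 CPM in blastocyst EPI-like cells. In the unnamed embryoid cells the same 16 PrE markers summed to 16566 CPM. By marker score PrE was also the closest class of each unnamed cluster. No embryoid cluster was named TE-like: 17 TE markers summed to 1104 CPM in embryoid PrE-like cells, against 11914 CPM in blastocyst TE-like cells. In FIB-like cells 12 FIB markers summed to 1995 CPM, against 18.7 CPM in embryoid PrE-like cells, but the 16 PrE markers summed to 3850 CPM. Of the FIB-like cells, 329 were in a cluster with no FIB marker among its 10 leading genes. In that cluster FIB markers summed to 1282 CPM and PrE markers to 3884 CPM, so the name is uncertain. Only 7 kept barcodes occurred in both libraries. Cells with under 1% mitochondrial UMIs numbered 120 in the embryoid library and 78 in the blastocyst library.

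Summed over the 32 genes, mitosis transcripts made up 4706 CPM (95% interval 4677 to 4735) of embryoid PrE-like cells, 3905 CPM (3820 to 3992) of FIB-like cells, 3135 CPM (3083 to 3188) of unnamed cells and 6863 CPM (6675 to 7055) of EPI-like cells. In the blastocyst library they made up 2641 CPM (2588 to 2695) of TE-like cells, 5237 CPM (5167 to 5307) of PrE-like cells and 4717 CPM (4634 to 4800) of EPI-like cells. Embryoid EPI-like cells were thus the highest of these 7 classes and blastocyst TE-like cells the lowest. In order from high to low, no pair of neighbours overlapped in their counting intervals except blastocyst EPI-like and embryoid PrE-like cells. In bulk sums of a class, fewer dividing cells and less RNA per dividing cell cannot be told apart.

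**Figure D1:**
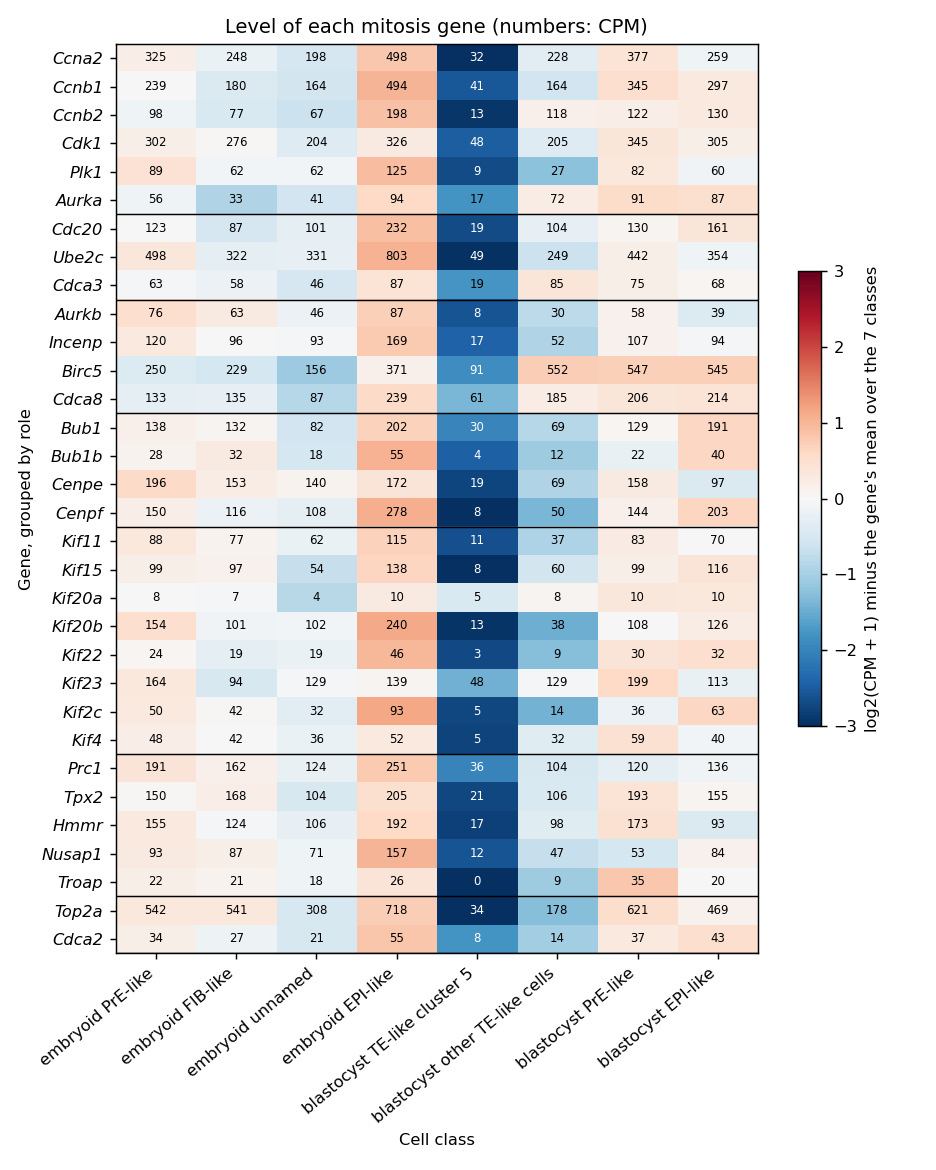
Level of each mitosis gene in each cell class. Rows are the 32 genes grouped by role, columns are classes, the printed number is the level in CPM, and the colour is log2(CPM + 1) minus the gene's mean over 7 classes (the embryoid 4 and the blastocyst TE-like, PrE-like and EPI-like classes), with colours limited to 3 either way. TE-like cells of cluster 5 were the lowest column for all rows but Kif20a, with Ube2c at 49 CPM, and Ube2c was highest in embryoid EPI-like cells, at 803 CPM.

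The first comparison asked how the blastocyst lineages differ. Mitosis genes were lower in TE-like cells than in PrE-like or EPI-like cells, whereas PrE-like and EPI-like cells lay close together. The sum was 1.98-fold lower (1.94 to 2.03) in TE-like than in PrE-like cells and 1.79-fold lower (1.74 to 1.83) in TE-like than in EPI-like cells, and 1.11-fold higher (1.09 to 1.14) in PrE-like than in EPI-like cells. Single genes were compared as log2 of CPM plus 1. In TE-like over PrE-like cells, 21 of 32 were lower by 2-fold or more and 0 higher, with a median log2 ratio of -1.09. Over all 8130 genes tested, with a mean of 10 CPM or more, 19.8% were that much lower and 10.7% that much higher, with a median of -0.36. That shift of all genes is part of the difference: relative to it the log2 ratio of the sum was -0.63, 10 of 32 genes were at least 2-fold lower, and Birc5, Ccnb2 and Cdca3 lay above the median of all genes. In TE-like over EPI-like cells, 0 were 2-fold higher and 15 lower, beside 14.1% and 21.9% of all genes, with a median of -0.86 against -0.28 for all genes. In PrE-like over EPI-like cells, 0 were 2-fold higher and 0 lower, beside 12.9% and 9.46% of all genes, with 19 genes above 0 and 13 below. Of the 32 genes, 31 had a mean of 10 CPM or more in each of these comparisons, and the one that did not was Kif20a.

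TE-like cells also had the highest mitochondrial share, with a median of 11.8% against 9.34% in PrE-like and 9.65% in EPI-like cells, and their median depth was 8605.5 UMIs against 9410 and 9861. The part of these differences in the result was not tested beyond a stricter filter. With cells over 10% mitochondrial UMIs left out, an alternative chosen after seeing the data, the log2 ratio of the sum was -0.94 in TE-like over PrE-like cells, against -0.99 with them.

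By role, the fall in TE-like relative to PrE-like cells was uneven. Chromosome structure genes differed by a log2 ratio of -2.03 (-2.17 to -1.90), checkpoint and kinetochore genes by -1.42 (-1.55 to -1.28), kinesin motors by -1.16 (-1.26 to -1.05), cyclins and kinases by -1.01 (-1.08 to -0.94), spindle genes by -0.91 (-1.01 to -0.81), partners of the anaphase promoting complex by -0.83 (-0.93 to -0.74) and the passenger complex by -0.42 (-0.50 to -0.35). The intervals of the first and the last role overlapped no other role's interval. The median of all genes, -0.36, lay within the interval of the passenger complex. In TE-like and PrE-like cells, Top2a held 148 of 161 and 621 of 658 CPM of the chromosome structure genes. Birc5 held 455 of 685 and 547 of 918 CPM of the passenger complex. The ratios of these 2 roles thus rest mostly on 1 gene each.

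Among the cyclins and kinases, Ccna2, the cyclin of replication and mitotic entry, had 187 CPM in TE-like, 377 CPM in PrE-like and 259 CPM in EPI-like cells. Cdk1, the kinase that the mitotic cyclins activate, had 172, 345 and 305 CPM in the same 3 classes. Both were about 2-fold lower in TE-like than in PrE-like cells, with log2 ratios of -1.01 and -1.0. Ccnb1 and Ccnb2, the 2 B-type cyclins, did not move alike. Ccnb1 had 138 CPM in TE-like, 345 CPM in PrE-like and 297 CPM in EPI-like cells, whereas Ccnb2 had 96.2, 122 and 130 CPM. Plk1, the polo-like kinase of spindle assembly and mitotic exit, had 23.4 CPM in TE-like, 82.0 CPM in PrE-like and 60.5 CPM in EPI-like cells, and Aurka, the centrosomal Aurora kinase, had 60.8, 91.2 and 86.7 CPM. Ccnb1 and Plk1 were picked for these sentences after their values were seen.

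Of the partners of the anaphase promoting complex, Ube2c, its ubiquitin-conjugating enzyme, had 207 CPM in TE-like, 442 CPM in PrE-like and 354 CPM in EPI-like cells. Cdc20, its mitotic activator, had 85.9, 130 and 161 CPM. Cdca3, which promotes mitotic entry, hardly differed, with 70.8 CPM in TE-like, 74.9 CPM in PrE-like and 68.5 CPM in EPI-like cells, and the interval of its TE-like over PrE-like log2 ratio (-0.33 to 0.16) took in 0. Cenpe, a kinetochore motor, had 58.3, 158 and 96.6 CPM in TE-like, PrE-like and EPI-like cells, and Cenpf, a kinetochore and nuclear matrix protein, 41.0, 144 and 203 CPM. These 2 kinetochore genes were lowest in TE-like cells but took opposite orders in the other classes. Bub1, the checkpoint kinase, had 60.5 CPM in TE-like, 129 CPM in PrE-like and 191 CPM in EPI-like cells.

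Among the motors, Kif23, part of the centralspindlin complex of cytokinesis, had 112 CPM in TE-like, 199 CPM in PrE-like and 113 CPM in EPI-like cells. Kif20b, a kinesin of late mitosis, had 33.2, 108 and 126 CPM, and Kif22, which moves chromosome arms, had 7.53, 30.1 and 32.3 CPM. Kif23 thus set PrE-like cells apart from both other lineages, whereas Kif20b and Kif22 set TE-like cells apart. Of the spindle genes, Prc1, the crosslinker of the central spindle, had 89.8 CPM in TE-like, 120 CPM in PrE-like and 136 CPM in EPI-like cells. Tpx2, which activates Aurka on the spindle, had 88.1, 193 and 155 CPM. Troap, a spindle protein, had the largest fall of the 32, with 6.97 CPM in TE-like, 34.7 CPM in PrE-like and 19.8 CPM in EPI-like cells. Its TE-like level rested on 25 UMIs, and its log2 ratio to PrE-like cells was -2.31 (-2.99 to -1.69). Top2a, the topoisomerase that untangles sister chromosomes, had 531 UMIs in TE-like and 2562 in PrE-like cells, a log2 ratio of -2.07 (-2.21 to -1.93). Cdca2, which recruits a phosphatase to anaphase chromosomes, had 12.8, 37.1 and 43.4 CPM in TE-like, PrE-like and EPI-like cells.

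**Figure D2:**
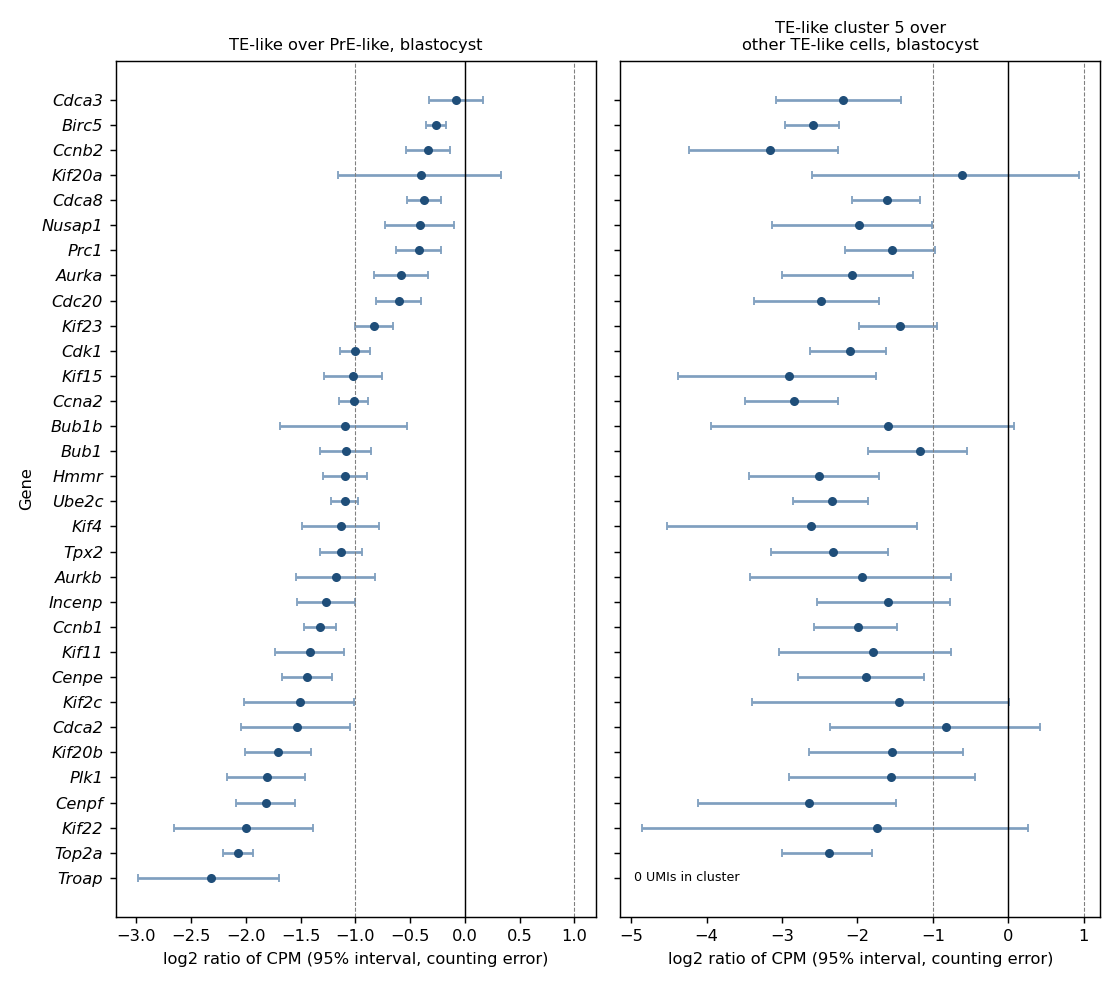
Log2 ratio of CPM for each mitosis gene in blastocyst TE-like over PrE-like cells (left) and in TE-like cluster 5 over the other TE-like cells (right). Points are ratios of summed UMIs, bars are 95% intervals of counting error, and dashed lines mark 2-fold. All 32 points lie below 0 on the left, from Cdca3 at -0.08 to Troap at -2.31, and the 31 points drawn on the right lie below 0 too.

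In the passenger complex, the Aurkb kinase assembly that corrects kinetochore attachments and directs cytokinesis, Birc5 and Cdca8 differed less between TE-like and PrE-like cells than Aurkb and Incenp. Birc5 (survivin), which docks the complex on chromatin, had 455 CPM in TE-like, 547 CPM in PrE-like and 545 CPM in EPI-like cells. Cdca8 (borealin), its partner in docking, had 159, 206 and 214 CPM. The kinase Aurkb had 25.7 CPM in TE-like, 58.0 CPM in PrE-like and 39.2 CPM in EPI-like cells, and the scaffold Incenp 44.6, 107 and 94.0 CPM. The ratio of Birc5 to Aurkb UMIs was 17.8 (14.4 to 22.1) in TE-like, 9.44 (8.26 to 10.8) in PrE-like and 13.9 (11.4 to 17.1) in EPI-like cells, and that of Birc5 to Incenp was 10.2 (8.67 to 12.1), 5.11 (4.61 to 5.67) and 5.80 (5.06 to 6.66). Birc5 to Cdca8 was 2.86 (2.60 to 3.15), 2.66 (2.46 to 2.88) and 2.55 (2.31 to 2.81), with overlapping intervals. Incenp to Aurkb also overlapped between the 3 classes, at 1.74 (1.34 to 2.27), 1.85 (1.58 to 2.17) and 2.40 (1.90 to 3.05). The intervals of Birc5 to Aurkb overlapped between TE-like and EPI-like cells. Top2a to Ccna2 and Ccnb1 to Ccnb2 set TE-like cells apart from both other classes. Top2a to Ccna2 was 0.79 (0.71 to 0.89) in TE-like, 1.65 (1.55 to 1.76) in PrE-like and 1.81 (1.65 to 1.99) in EPI-like cells, and Ccnb1 to Ccnb2 was 1.43 (1.25 to 1.65), 2.84 (2.56 to 3.15) and 2.28 (2.01 to 2.60). Such ratios hold capture and length differences between the genes, so only their change across classes can be read.

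Promoters were looked at for features that the gene list did not use. Many mitotic genes are known to carry a CHR element, bound by the DREAM and MuvB complexes, and CCAAT boxes, bound by NF-Y. RefSeq promoters of build GRCm38.p6, from 250 bases before to 50 bases after the start, were found for 26 of the 32 genes, and not for Ccna2, Tpx2, Cdca2, Aurkb, Kif20a and Incenp. The CHR letters TTTGAA, on either strand, were in 20 of 26 (76.9%) and in 18.1% of all 27025 promoters of that length. The variant TTCGAA was in 3 of 26 and in 1.57% of all, and the letters CCAAT, on either strand, in 21 of 26 (80.8%) and in 37.9% of all. The CHR letters together with the CCAAT box were in 17 of 26 (65.4%), against 7.12% of all. In a window of 50 bases either side of the start, chosen after the positions were seen, TTTGAA was in 19 of 26 and in 4.92% of all. Birc5, Bub1, Ccnb1, Cenpe, Nusap1 and Troap held no TTTGAA, and Birc5 and Nusap1 none of the 3 motifs. Such letter matches describe the sequence and are not shown to be bound. Shown here are Top2a and Plk1, which were well over 2-fold lower in TE-like cells, Ccnb2, which differed little, and Birc5, whose ratios to Aurkb and Incenp differed between TE-like and PrE-like cells. Capitals mark the CHR letters, their variant and the CCAAT box, on either strand, and each sequence reads 5′ to 3′ on the strand of its gene.
Top2a, chr11:99024140-99024439, minus strand: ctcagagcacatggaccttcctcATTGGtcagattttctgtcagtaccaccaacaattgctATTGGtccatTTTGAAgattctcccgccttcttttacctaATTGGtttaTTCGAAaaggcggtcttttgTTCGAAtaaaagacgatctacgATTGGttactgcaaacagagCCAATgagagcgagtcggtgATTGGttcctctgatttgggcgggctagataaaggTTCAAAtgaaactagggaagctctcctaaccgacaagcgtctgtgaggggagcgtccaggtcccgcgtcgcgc
Plk1, chr7:122159185-122159484, plus strand: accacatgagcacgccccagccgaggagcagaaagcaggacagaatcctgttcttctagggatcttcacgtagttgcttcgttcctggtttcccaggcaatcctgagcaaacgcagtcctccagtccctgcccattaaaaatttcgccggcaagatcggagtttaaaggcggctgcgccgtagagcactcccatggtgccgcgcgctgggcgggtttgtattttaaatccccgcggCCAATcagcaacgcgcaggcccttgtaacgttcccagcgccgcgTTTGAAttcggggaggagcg
Ccnb2, chr9:70421505-70421804, minus strand: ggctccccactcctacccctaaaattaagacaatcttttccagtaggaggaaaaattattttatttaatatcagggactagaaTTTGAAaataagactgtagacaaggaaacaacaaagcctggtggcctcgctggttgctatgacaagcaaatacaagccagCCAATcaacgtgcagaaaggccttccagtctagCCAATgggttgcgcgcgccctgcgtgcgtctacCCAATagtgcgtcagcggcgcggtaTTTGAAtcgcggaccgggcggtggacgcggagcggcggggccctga
Birc5, chr11:117848987-117849286, plus strand: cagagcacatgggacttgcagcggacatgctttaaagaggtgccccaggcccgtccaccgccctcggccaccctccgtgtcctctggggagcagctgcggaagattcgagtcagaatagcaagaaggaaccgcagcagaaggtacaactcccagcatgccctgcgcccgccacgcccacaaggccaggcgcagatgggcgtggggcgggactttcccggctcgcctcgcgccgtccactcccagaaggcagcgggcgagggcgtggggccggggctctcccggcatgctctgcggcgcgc
Top2a and Ccnb2 both hold the CHR letters and CCAAT boxes, and their TE-like over PrE-like log2 ratios were -2.07 and -0.34. Whether the motifs of the 26 promoters relate to such ratios was not tested.

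Within the TE-like cells, 79 cells of blastocyst cluster 5 were set against the other 297. This cluster was picked after values were seen, as the one with the highest Krt7, and its leading genes were Ctsll3, BC051665, Krt19, Snap91, S100a16, Gm4926, Dmkn, Il6, Tinagl1 and Krt7. Mitosis genes summed to 711 CPM (652 to 774) in it, against 3156 CPM (3091 to 3222) in the other TE-like cells, 4.44-fold lower (4.07 to 4.85). All 32 genes were below 0, 30 of them by 2-fold or more, and their median was -1.93, beside 8.33% of the 7492 genes tested at least 2-fold lower, 5.74% higher and a median of -0.08. Only 27 of the 32 had a mean of 10 CPM or more here. Cdca2 and Kif20a were not 2-fold lower, with 7.95 and 5.30 CPM in the cluster against 14.1 and 8.12 CPM in the other TE-like cells.

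Genes of every role fell in cluster 5, by log2 ratios between -1.71 for checkpoint and kinetochore genes and -2.35 for cyclins and kinases. Ccna2 had 31.8 CPM in the cluster and 228 CPM in the other TE-like cells, and Ccnb2, which had differed little between lineages, 13.2 CPM and 118 CPM. Ube2c had 49 CPM in the cluster and 249 CPM in the others, and Cdk1 47.7 and 205 CPM. Birc5 too was lower, with 91.4 CPM in cluster 5 against 552 CPM in the other TE-like cells, a level close to that of PrE-like and EPI-like cells. Troap was listed at 0 UMIs in the cluster, at least 2.22-fold lower against a floor of 3 UMIs, and with it at that bound the median was -1.87. Depth and mitochondrial share were near equal, with medians of 8601 UMIs and 11.2% in cluster 5 against 8610 UMIs and 11.9% in the other TE-like cells. TE markers summed to 16214 CPM in cluster 5, EPI markers to 3434 CPM and PrE markers to 1404 CPM. The other TE-like clusters were apart as well: 42 cells led by Cald1, Irx3 and Elf5 had 4294 CPM (4110 to 4484) of mitosis transcripts, and 255 cells led by Serpinb6b, H19 and Cdx2 had 2925 CPM (2856 to 2995). RNA freed from broken cells adds UMIs to every barcode, and in cluster 5 all sources together came to those 711 CPM.

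When cells over 10% mitochondrial UMIs were left out before clustering, the nearest cluster held 75 cells, of which 20 came from cluster 5, and its log2 ratio to the other TE-like cells was -0.61, against -2.15 here. With the same filter but the classes kept, 27 cells of cluster 5 gave -2.81 against 89 others. The size of this contrast therefore rests on which cells are put in the cluster.

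The second comparison set embryoid cells against blastocyst cells of the same class name. In PrE-like cells the sums lay close, at 4706 CPM in the embryoid and 5237 CPM in the blastocyst library, a log2 ratio of -0.15 (-0.18 to -0.13). In EPI-like cells the embryoid sum was 1.46-fold higher (1.41 to 1.5), at 6863 CPM against 4717 CPM. For PrE-like cells 0 of 32 genes were at least 2-fold higher and 1 lower, beside 15.3% and 10.9% of 8538 genes tested, with 14 genes above 0 and 18 below. For EPI-like cells 4 were at least 2-fold higher and 0 lower, beside 12% and 8.82% of 8291 genes, with 30 above 0 and a median of 0.52 against 0.04 for all genes. The 2 libraries also differ in depth and mitochondrial share, which cannot be told apart from the kind of sample. The median mitochondrial share was 6.62% in embryoid and 9.34% in blastocyst PrE-like cells, and 5.24% in embryoid and 9.65% in blastocyst EPI-like cells. With cells over 10% left out and classes kept, the EPI-like log2 ratio was 0.40 in place of 0.54, and 1 gene in place of 4 was at least 2-fold higher.

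Birc5 was the gene 2-fold lower in embryoid PrE-like cells, with 250 CPM in embryoid PrE-like cells against 547 CPM in blastocyst PrE-like cells, a log2 ratio of -1.13 (-1.20 to -1.06). It was also the lowest of the 32 in EPI-like cells, with 371 CPM in embryoid and 545 CPM in blastocyst cells. Its ratio to Aurkb was 3.30 (3.13 to 3.49) in embryoid and 9.44 in blastocyst PrE-like cells, and 4.25 (3.23 to 5.67) in embryoid and 13.9 in blastocyst EPI-like cells. Aurkb itself ran the other way, with 75.8 CPM in embryoid and 58.0 CPM in blastocyst PrE-like cells and 87.3 and 39.2 CPM in embryoid and blastocyst EPI-like cells. In the FIB-like and unnamed embryoid cells the Birc5 to Aurkb ratio was 3.62 and 3.36, so all 4 embryoid classes lay below the 3 blastocyst classes. Birc5 overlaps no other gene of the annotation.

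Aurka had 56.1 CPM in embryoid and 91.2 CPM in blastocyst PrE-like cells, a log2 ratio of -0.70, and followed Birc5 as the next lowest. Cdca8, with 133 and 206 CPM, and Troap, with 22.4 and 34.7 CPM, both stood at -0.63. The 3 genes with the highest ratios in PrE-like cells were Nusap1, Prc1 and Kif20b, while the spindle genes as a group differed little, by 0.09 (0.03 to 0.15). Nusap1, a microtubule-bundling protein, had 93 CPM in embryoid and 52.6 CPM in blastocyst PrE-like cells, Prc1 had 191 and 120 CPM, and Kif20b 154 and 108 CPM. All 3 were higher in embryoid EPI-like cells too, with log2 ratios of 0.89, 0.88 and 0.93. Nusap1 shares its locus with Oip5, and Prc1 with Rccd1, on the opposite strand, and without a statement on strand their reads cannot be told apart. Ccna2, Cdc20, Cdca8, Kif20a and Kif4 likewise overlap measured genes on the opposite strand. Top2a overlaps Gm26394 on the opposite strand and Gm23451 on its own, of which 1 was measured. Kif20b overlaps the measured Mir1950 on its own strand. A pseudogene of Ccnb2 was listed with 57 UMIs against 3964 UMIs for Ccnb2, and pseudogenes of Ccnb1, Kif22 and Kif4 are annotated, so that reads of these 4 genes may be split.

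**Figure D3:**
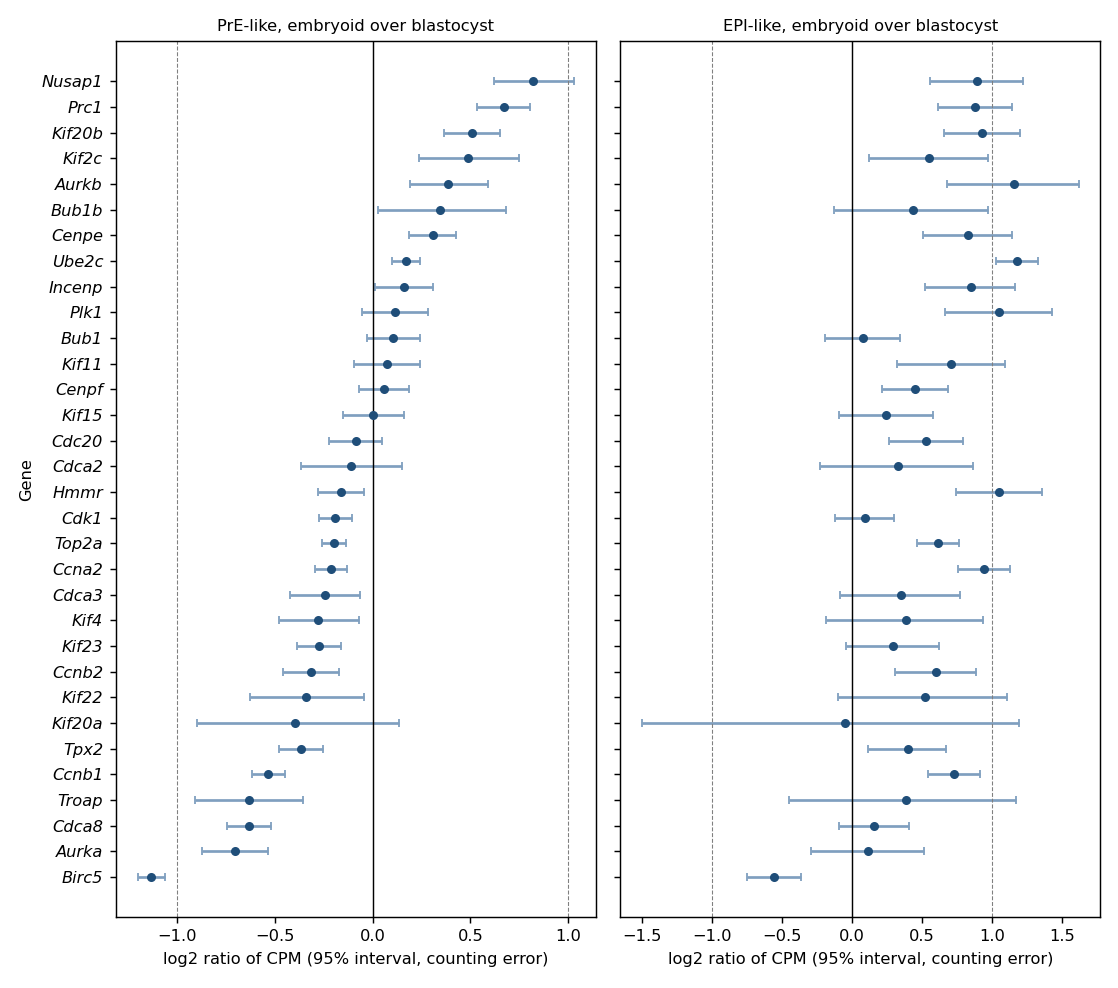
Log2 ratio of CPM for each mitosis gene in embryoid over blastocyst cells, for PrE-like cells (left) and EPI-like cells (right). Genes are ordered by the left panel, bars are 95% intervals of counting error, and dashed lines mark 2-fold. Birc5 is the lowest point in both panels, at -1.13 and -0.55, and most EPI-like points lie above 0.

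In EPI-like cells the 4 genes at least 2-fold higher in the embryoid library were Ube2c, with 803 CPM against 354 CPM in the blastocyst, Aurkb, Hmmr and Plk1, the last named after its values were seen. Hmmr, a spindle and hyaluronan-binding protein, had 192 CPM in embryoid and 92.8 CPM in blastocyst EPI-like cells, and Plk1 had 125 and 60.5 CPM. The 2 genes below 0 were Birc5 and Kif20a, a cytokinesis kinesin with 7 UMIs in embryoid and 26 in blastocyst EPI-like cells, too few to place. Bub1 was close to even, with 202 CPM in embryoid and 191 CPM in blastocyst EPI-like cells, as was Cdk1, with 326 and 305 CPM. Ccna2 had 498 CPM in embryoid and 259 CPM in blastocyst EPI-like cells, and Cdc20 232 and 161 CPM.

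Within the embryoid library, PrE-like cells had a sum 1.46-fold lower (1.42 to 1.5) than the 109 EPI-like cells. Of the 32 genes 0 were at least 2-fold higher and 2 lower, beside 18.8% and 11.9% of all 8687 genes tested, with 30 genes below 0 and a median of -0.52 against 0.06 for all genes. Ccnb1 and Ccnb2 were the 2 lower ones, Ccnb1 with 239 CPM in PrE-like and 494 CPM in EPI-like cells and Ccnb2 with 97.9 and 198 CPM. Cenpe and Kif23 alone lay above 0, Cenpe with 196 CPM in PrE-like and 172 CPM in EPI-like cells and Kif23 with 164 and 139 CPM. Both intervals took in 0, from -0.07 to 0.46 for Cenpe and from -0.04 to 0.54 for Kif23. In the blastocyst both were higher in PrE-like than in EPI-like cells, with intervals above 0.

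The 6 embryoid PrE-like clusters had from 3028 CPM in 747 cells led by F3 and Ctgf to 6357 CPM in 386 cells led by the amino acid stress genes Chac1, Trib3 and Atf5, against 4783 and 6196 CPM in the 2 blastocyst PrE-like clusters. The blastocyst cluster at 6196 CPM, led by Tfec, Spink3 and Cubn, held 48 cells under 1% mitochondrial UMIs among its 156. The embryoid cluster led by Cubn and Apoc2 had 4567 CPM. The lowest embryoid cluster, unnamed and led by Lgals3 and Krt6a, had 1871 CPM (1776 to 1970) of mitosis transcripts. Its PrE markers summed to 21243 CPM. Of its 169 cells 73 had under 1% mitochondrial UMIs, and what part these had in its mitosis level was not tested.

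To describe single cells at equal depth, each was thinned to 2000 UMIs, and a cell with 10 or more mitosis UMIs was called mitosis-high. By this rule the mitosis-high share of the embryoid library was 36.9% (35.3 to 38.4, exact Clopper-Pearson interval, 1381 of 3746) of PrE-like, 29.9% (25.4 to 34.6) of FIB-like, 21.9% (19 to 25.1) of unnamed and 58.1% (48.1 to 67.7, 61 of 105) of EPI-like cells. In the blastocyst library it was 17.9% (14.1 to 22.2, 65 of 364) of TE-like, 47.0% (42.0 to 51.9, 193 of 411) of PrE-like and 40.9% (34.7 to 47.3, 101 of 247) of EPI-like cells. Unthinned, at 5000 mitosis UMIs or more per 1000000 of the cell, the embryoid classes gave 34.8%, 29.1%, 21.1% and 54.1% in the same order, and the blastocyst classes 16.2%, 48.1% and 36.2%. In TE-like cluster 5 only 1 of 77 cells (1.30%, 0.03 to 7.02) passed, against 64 of 287 other TE-like cells (22.3%, 17.6 to 27.6). The class is a range and not a cell type: 596 embryoid PrE-like cells, and 53 TE-like, 95 PrE-like and 69 EPI-like blastocyst cells, lay within 2 UMIs of the threshold. Thinning left out 257 embryoid PrE-like and 4 embryoid EPI-like cells, and 12 TE-like, 36 PrE-like and 10 EPI-like blastocyst cells.

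Mitosis-high cells were deeper before thinning than cells left with 4 or fewer mitosis UMIs after it. Among embryoid PrE-like cells the median was 5930 UMIs in mitosis-high cells against 4332 UMIs in those low cells. It was 11063 against 8258 among blastocyst PrE-like cells, and 10238 against 7990 among TE-like cells. Cells between these sets were not part of this comparison. The doublet caller marked 0 of 5328 embryoid cells and 17 of 1097 blastocyst cells, which were left out, so in the embryoid library the part of doublets was not tested.

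PrE-like cells of the 2 libraries had near means but other distributions. The mean was 8.5 mitosis UMIs per 2000 in embryoid and 9.89 in blastocyst PrE-like cells, yet 20.7% of embryoid cells held none, against 7.79% of blastocyst cells, and 13.7% held 20 or more, against 12.2%. The variance was 10.4 times the mean in embryoid and 6.25 times in blastocyst PrE-like cells. With cells thinned to 4000 UMIs the means were 19.4 and 19.6, the shares with none 8.25% and 3.68%, and the shares with 40 or more 15.6% and 8.5%. At 4000 UMIs 1457 of 4003 embryoid and 94 of 447 blastocyst PrE-like cells were too shallow and left out. Embryoid PrE-like cells thus held none more often at both depths, whereas the gap at the upper end was small at 2000 UMIs (513 of 3746 cells against 50 of 411) and appeared at 4000 UMIs, among the deeper cells. EPI-like cells seldom held none, with 2.86% in the embryoid and 4.86% in the blastocyst library. Of TE-like cluster 5, 59.7% held none, against 16.0% of the other TE-like cells.

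**Figure D4:**
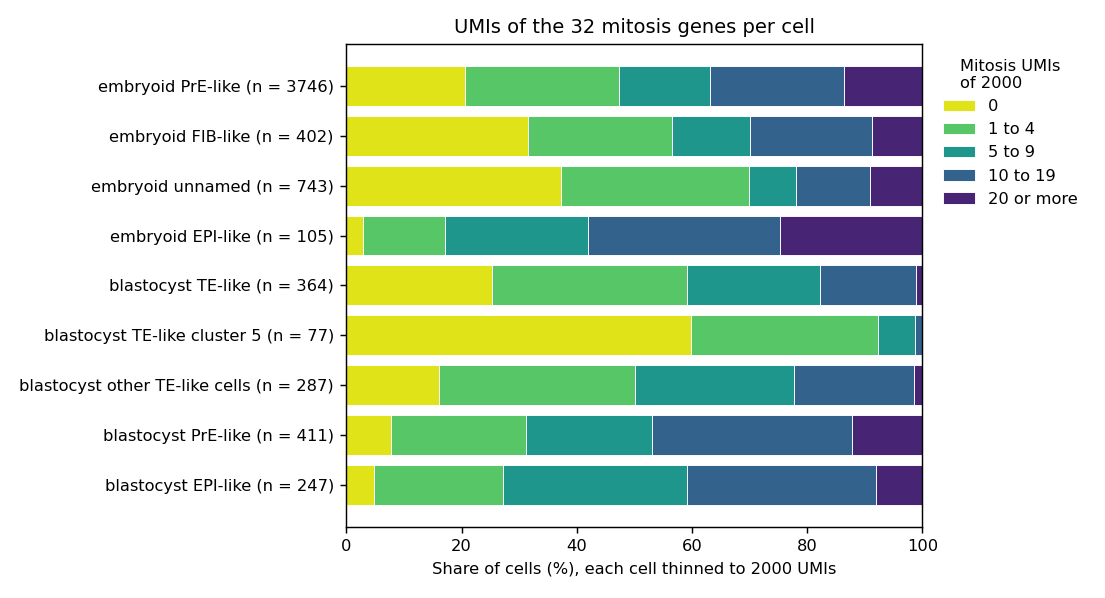
Share of cells by the number of UMIs of the 32 mitosis genes, after thinning each cell to 2000 UMIs. Each bar is a class, split into cells with 0, 1 to 4, 5 to 9, 10 to 19 and 20 or more mitosis UMIs, and the TE-like bar is also given as its 2 parts. The segment at 0 is 59.7% in TE-like cluster 5 and 2.86% in embryoid EPI-like cells.

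The genes moved together from cell to cell, as a description with no test, since they define the grouping in common. Each gene was set between cells with 10 or more UMIs of the other 31 genes and cells with 4 or fewer. No share over all genes is given beside the counts that follow. What part of them is particular to the 32 genes was not tested. In embryoid PrE-like cells all 32 were higher in the first set, with intervals above 0, with a median log2 ratio of 3.62 (range 2.04 to 5.45), and in blastocyst PrE-like cells 29 were, with a median of 2.54. In TE-like cells 28 were and in EPI-like blastocyst cells 24. In embryoid EPI-like cells, with few cells in the low set, 16 were, and Cdca3 and Kif22 lay below 0, at -0.44 and -0.66 with intervals that took in 0. In cells low for the other 31, Birc5 stood at 46.9 CPM of thinned UMIs in embryoid PrE-like cells, against 220 CPM in TE-like, 137 CPM in PrE-like and 253 CPM in EPI-like blastocyst cells. Ube2c in such low cells stood at 59.5 CPM in embryoid PrE-like cells and at 63.1 CPM in TE-like, 45.5 CPM in PrE-like and 92.9 CPM in EPI-like blastocyst cells. In cells high for the other 31, Birc5 was at 454 CPM in embryoid and 808 CPM in blastocyst PrE-like cells, so that it was higher in the blastocyst in both sets. Its log2 ratio of high to low cells was 3.27 in embryoid and 2.56 in blastocyst PrE-like cells, beside the medians of 3.62 and 2.54.

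DNA replication genes, a list of 28 such as Mcm and Gins subunits, were set beside the mitosis genes. They summed to 2249 CPM in PrE-like and 4322 CPM in EPI-like embryoid cells, and to 2348 CPM in TE-like, 3480 CPM in PrE-like and 5118 CPM in EPI-like blastocyst cells. The ratio of mitosis to replication sums was 2.09 (2.07 to 2.12) in PrE-like and 1.59 (1.52 to 1.66) in EPI-like embryoid cells, and 1.13 (1.09 to 1.16) in TE-like, 1.5 (1.47 to 1.54) in PrE-like and 0.92 (0.90 to 0.94) in EPI-like blastocyst cells. In cluster 5 it was 0.56 (0.51 to 0.63), against 1.20 (1.16 to 1.23) in the other TE-like cells. EPI-like blastocyst cells, near PrE-like cells in mitosis genes, had the highest replication sum of these classes. Among thinned embryoid cells, 35.3% of PrE-like and 48.6% of EPI-like cells had at least 10 mitosis UMIs and more of them than replication UMIs, and 7.26% and 27.6% had at least 10 replication UMIs and more of these. In the blastocyst library the first share was 15.9% of TE-like, 43.8% of PrE-like and 29.6% of EPI-like cells, and the second 10.4%, 17.0% and 38.9%. Such calls alone do not measure cycling.

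**Figure D5:**
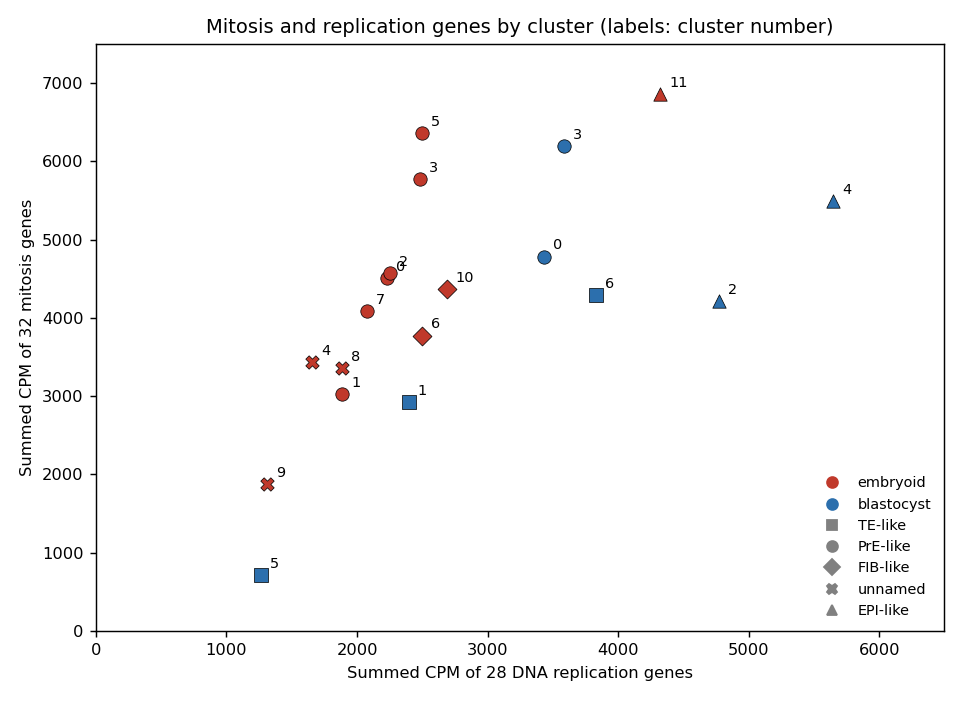
Summed level of the 32 mitosis genes against that of 28 DNA replication genes, both in CPM, for each cluster. Colour gives the library, shape the class and the label the cluster number. Embryoid PrE-like clusters 3 and 5 lie high, at 5773 and 6357 CPM of mitosis genes and 2484 and 2497 CPM of replication genes, blastocyst EPI-like clusters lie far right at 4217 and 5494 CPM of mitosis genes, and TE-like cluster 5 lies at the lower left.

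A list of 47 further mitosis genes was described in the same way, of which 46 had a mean of 10 CPM or more in each comparison given here but that within the TE-like cells, where 42 had. In TE-like over PrE-like cells 20 were at least 2-fold lower and 1 higher, with a median of -0.88, beside 19.8% and 10.7% of all genes, and in cluster 5 over the other TE-like cells 40 were lower and 0 higher, beside 8.33% and 5.74%. In embryoid over blastocyst PrE-like cells 3 were higher and 5 lower, beside 15.3% and 10.9%, and in EPI-like cells 5 were higher and 1 lower, beside 12% and 8.82%. Ttk, the checkpoint kinase upstream of Bub1, had 20.6 CPM in TE-like and 77.6 CPM in PrE-like blastocyst cells, and Ncapd2, a condensin subunit, had 28.7 and 96.5 CPM. Psrc1, a spindle protein, had 214 CPM in embryoid PrE-like cells, 19.8 CPM in TE-like cells and 64.3 CPM in blastocyst PrE-like cells. Mybl2, a partner of the MuvB complex at mitotic genes, had 9.55 CPM in embryoid and 73.5 CPM in blastocyst PrE-like cells. Cdc25b, a phosphatase that activates Cdk1, had 11.3 CPM in embryoid PrE-like cells, 10.6 CPM in TE-like cells and 3.15 CPM in blastocyst PrE-like cells. Its mean was under 10 CPM in both comparisons with blastocyst PrE-like cells. It was thus counted as 2-fold higher there without the level asked of all genes tested.

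Of 28 replication genes, of which 27 had UMIs in TE-like or PrE-like blastocyst cells, 5 were at least 2-fold lower and 0 higher in TE-like over PrE-like cells, a share lower near the 19.8% of all genes. In TE-like over EPI-like cells 19 were lower and 0 higher, beside 21.9% and 14.1% of all genes, and in embryoid over blastocyst PrE-like cells 5 were lower and 0 higher, beside 10.9% and 15.3%. Gins2, of the replicative helicase, had 7.25 CPM in TE-like and 25.0 CPM in PrE-like cells. Exo1, an exonuclease, had 28.4 and 73.2 CPM. Ccne1, the cyclin of entry into replication, had 34.6 CPM in TE-like cells and 40.9 CPM in embryoid PrE-like cells, against 108 CPM in blastocyst PrE-like cells. Rrm2, of ribonucleotide reductase, had 183 CPM in embryoid PrE-like and 429 CPM in blastocyst PrE-like cells. Rrm2 differed by less than its counting interval between TE-like cells, at 441 CPM, and PrE-like cells.

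A list named for cell cycle exit and arrest held 9 genes: Cdkn1a, Cdkn1b, Cdkn1c, Cdkn2a, Cdkn2b, Ccng1, Btg2, Gmnn and Fbxo5. Its name may not hold for each of them. In embryoid over blastocyst PrE-like cells 6 were at least 2-fold higher and 0 lower, beside 15.3% and 10.9% of all genes. In EPI-like cells 6 were higher and 0 lower, beside 12% and 8.82%. Below 0 lay 2 of the 9 in PrE-like and 1 in EPI-like cells. Of the 9, 8 had a mean of 10 CPM or more in these comparisons and 6 in TE-like over PrE-like cells. Among those higher, Cdkn2a, a locus whose products restrain Cdk4 and Mdm2, had 106 CPM in embryoid and 1.46 CPM in blastocyst PrE-like cells, where it rested on 6 UMIs, and Cdkn1c 74.6 and 1.46 CPM. Cdkn1a, the p21 inhibitor, had 9199 UMIs in embryoid and 29 UMIs in blastocyst PrE-like cells. In TE-like over PrE-like cells 1 of the 9 was higher and 3 lower, beside 10.7% and 19.8% of all genes. Cdkn1b, the p27 inhibitor, had 25.1 CPM in TE-like and 105 CPM in PrE-like cells, Cdkn1a 17.3 and 7.03 CPM, and Cdkn2b, one of the 3, had 1 UMI in TE-like and 7 UMIs in PrE-like cells, with an interval that took in 0.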

How the data were processed

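The deposited files hold raw UMI counts per gene and cell barcode; per the submitters' processing notes, build mm10, STAR 2.7.1a, featureCounts 1.6.4 of Subread, UMI-tools 1.0.1 and bcl2fastq 2.19.1.403 were used. The strand setting and annotation were not given in the sources used here. All 32 genes, the 3 other cell cycle lists and the marker lists were chosen with earlier results of these data known. Barcodes were kept with at least 1000 UMIs, 500 genes and at most 25% mitochondrial UMIs, and doublets called by Scrublet (scanpy 1.11.5) were removed. It marked 1.55% of blastocyst cells and 0% of embryoid cells. No embryoid doublet was thus removed, and whether the caller missed doublets there was not tested. Cells were clustered per library (2000 variable genes, 30 components, 20 neighbours, Leiden resolution 1.0) without the mitosis, replication, arrest, ribosomal and mitochondrial genes, 529 in all. Each cluster was given the class whose markers were most often at 20 CPM or more and at least 1/3 of the highest cluster's level, with at least 3 such markers, and stayed unnamed where its 10 leading genes held more markers of another class; this scoring was written after the marker list, so class shares may differ from the study's.

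UMIs were summed per class, as counts and as CPM of the class total. Ratios carry exact conditional intervals, levels exact Poisson intervals and shares exact Clopper-Pearson intervals, all at 95% and for counting error only. Of these, the ratio intervals were checked on simulated data. The floor for a gene at 0 was 3 UMIs in the class. Fold counts used log2(CPM + 1) and 2-fold, beside all genes with a mean of 10 CPM or more. Described by name were the 2 genes with most UMIs in each of 7 roles, the 3 highest and 3 lowest log2 ratios in TE-like over PrE-like and in both embryoid over blastocyst comparisons, and of each other list the 3 largest absolute ratios in TE-like over PrE-like and embryoid over blastocyst PrE-like cells, of which 1 is not reported here. Thinning drew 2000 UMIs per cell without replacement. Python 3.11.15 with scipy 1.17.1, numpy 2.4.6, leidenalg 0.10.2 and matplotlib 3.10.9 was used. The alternatives varied the cell filters, doublet removal, cluster resolution, scaling, weighting of cells, pseudocount, most abundant gene, threshold and thinning.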

Additional observations from a re-analysis of the deposited data

Results flagged for a closer look

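The contrast of PrE-like over EPI-like cells took opposite signs in the 2 libraries. The log2 ratio of the summed mitosis genes was -0.54 (4706 against 6863 CPM) in the embryoid and 0.15 (5237 against 4717 CPM) in the blastocyst library. Of the 32 genes, 30 lay below 0 in the embryoid library, 19 lay above 0 in the blastocyst library, and 17 had opposite signs. Over all genes tested, 4148 of 8687 lay below 0 in the embryoid and 4259 of 8244 above 0 in the blastocyst library. The blastocyst count was thus near the share of all genes, with 17 of the 32 above their median and 15 below. No count of opposite signs over all genes is given here. With 1 library of each kind the difference was not tested.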

How the results depend on the processing

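No paired analysis was possible because each kind of sample is 1 library. No direction of a summed ratio reversed under any alternative, and 129 of 140 counts of genes 2-fold apart stayed within 1.5 times, but 30 of 70 summed ratios and 36 of 98 mitosis-high shares moved by more than their counting error. Classes rest on rebuilt names and the EPI-like embryoid class on 109 cells; genes under about 10 CPM, such as Kif20a, were too shallow to place. Cluster 5 stands below for blastocyst TE-like cluster 5 over the other TE-like cells, and the cause of the changes listed was not tested.

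At 2000 UMIs and 1000 genes, the log2 ratio of the sum was -0.46 in embryoid PrE-like over EPI-like cells (0 genes 2-fold lower), -0.065 in embryoid over blastocyst PrE-like cells and -2.31 in cluster 5, and 39.0% of embryoid PrE-like cells were mitosis-high. At 10% mitochondrial UMIs before clustering, it was -0.77 in TE-like over EPI-like, -0.94 in TE-like over PrE-like, -0.30 in embryoid over blastocyst PrE-like (1 gene 2-fold lower in embryoid PrE-like over EPI-like), 0.39 in embryoid over blastocyst EPI-like (1 gene 2-fold higher) and -0.61 in cluster 5 (1 gene higher, 8 lower). Mitosis-high shares there were 29.4% in unnamed embryoid, 24.1% in TE-like, 52.5% in PrE-like and 48.9% in EPI-like blastocyst cells and 23.2% in the cluster matched to cluster 5. With that filter and classes kept, added after seeing the data, the ratios were -0.77, -0.94, -0.29, 0.40 and -2.81, the same 2 counts were 1 and 1, and shares were 26.9% in TE-like, 54.4% in PrE-like and 52.6% in EPI-like blastocyst cells, 0% in cluster 5 and 35.4% in the other TE-like cells.

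With doublets kept, ratios were 0.11 in PrE-like over EPI-like and -0.93 in TE-like over PrE-like blastocyst cells, and -0.12 in embryoid over blastocyst PrE-like cells. At resolution 2.0 they were -0.63 in embryoid PrE-like over EPI-like (4 genes lower) and -0.20 in embryoid over blastocyst PrE-like, with shares of 35.0% in embryoid PrE-like and 31.5% in unnamed cells. Under median of ratios scaling, they were -0.55 in TE-like over EPI-like, -0.63 in TE-like over PrE-like (10 genes lower), -0.60 in embryoid PrE-like over EPI-like and -0.19 in embryoid over blastocyst PrE-like. With cells weighing equally, they were 0.22 in PrE-like over EPI-like and -1.08 in TE-like over PrE-like blastocyst cells, -0.64 in embryoid PrE-like over EPI-like and -0.32 in embryoid over blastocyst PrE-like. Without Birc5, the gene with most UMIs in these blastocyst classes together, they were -0.93 in TE-like over EPI-like and -1.10 in TE-like over PrE-like. Adding 10 CPM left 1 gene lower in embryoid PrE-like over EPI-like and 1 higher in embryoid over blastocyst EPI-like. With unnamed clusters counted by their markers, also added later, they were -0.63 in embryoid PrE-like over EPI-like and -0.24 in embryoid over blastocyst PrE-like, with 34.4% of embryoid PrE-like cells mitosis-high.

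At 5 or more UMIs, mitosis-high shares were 52.6% in PrE-like, 43.5% in FIB-like, 30.1% in unnamed and 82.9% in EPI-like embryoid cells, and 40.9% in TE-like (7.79% in cluster 5, 49.8% in the others), 68.9% in PrE-like and 72.9% in EPI-like blastocyst cells. At 20 or more, they were 13.7%, 8.71%, 9.02% and 24.8%, and 1.10% (0% and 1.39%), 12.2% and 8.10%, in the same order. Thinned to 4000 UMIs, with 20 or more as the threshold, they were 41.7% in PrE-like, 42.0% in FIB-like and 28.3% in unnamed embryoid cells. That depth left out 214 of 440 FIB-like and 256 of 776 unnamed cells as too shallow. Not thinned, the share was 34.8% in PrE-like embryoid cells.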
